A study of Homo sapiens with 8 samples.

Results

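The loci of GATA3, FOXA1, SPDEF, TFAP2C and XBP1 are described here by the progesterone receptor (PR) sites, chromatin regions and nucleosomal reads that fall in and around each gene. Each window was the gene with 50 kb on either side, and a site or region was a member if it overlapped a window. Within a window no measured value chose members, but the 5 loci were chosen with earlier results of these data known. On hg19 the windows were chr10:8046000-8168000 for GATA3, chr14:38008000-38115000 for FOXA1, chr6:34455000-34575000 for SPDEF, chr20:55154000-55265000 for TFAP2C and chr22:29140000-29247000 for XBP1, 567 kb in all. When overlapping sites of the 5 PR lists were merged, 51 of 43784 merged PR sites lay in these windows: 7 at GATA3, 12 at FOXA1, 10 at SPDEF, 3 at TFAP2C and 19 at XBP1. The chromatin lists added 56 of 73263 regions of histone H3 monomethylated at lysine 4 (H3K4me1), 28 of 22593 regions of the trimethylated form (H3K4me3) and 100 of 31128 regions of RNA polymerase II (RNAPII).

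All 5 genes encode transcription factors that are known from the luminal, hormone-responsive cells of the breast. GATA3 is a zinc-finger factor needed for luminal differentiation, and FOXA1 is a forkhead factor that can bind nucleosomal DNA and opens chromatin for steroid receptors. SPDEF is an ETS factor of secretory epithelium, TFAP2C is an AP-2 factor that acts with the estrogen receptor, and XBP1 is a bZIP factor whose messenger RNA is spliced when unfolded proteins load the endoplasmic reticulum. PR is a nuclear receptor that, once it has bound a progestin, recognises DNA as a dimer. H3K4me1 is known as a mark of enhancers, H3K4me3 as a mark of active promoters, and RNAPII as the enzyme that transcribes them.

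The cells were T47D-MTVL, a human luminal breast cancer line carrying a mouse mammary tumour virus reporter. PR was precipitated from cells given 10 nM of the synthetic progestin R5020 for 5, 30, 60 or 360 min and from unstimulated cells (0 min). H3K4me1, H3K4me3 and RNAPII were mapped in unstimulated cells alone, so their state after R5020 is not known here. Before hormone, all cells had been kept in charcoal-treated serum and then without serum, and they were fixed with formaldehyde after it. A table of reads from DNA that micrococcal nuclease (MNase), an enzyme that spares DNA wrapped in nucleosomes, had not cut gave values at each 60 min PR site after 60 min of R5020 and in unstimulated cells. Each of the 8 groups was 1 library, so nothing here could be tested between groups and p-values are not given. The lists hold positions only, the read depth is unknown, and a site missing from a list may still have been bound. Intervals are exact 95% (Clopper-Pearson) and cover counting error only. Neighbouring sites of 1 locus share their chromatin and their library, so they are not independent.

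The 250 bases before the start of 3 of the genes are printed. H3K4me3 and RNAPII regions lay within 1 kb of the starts of all 5 genes. On hg19, with gene limits in whole kb, the nearest PR site lay 1.35 kb from the start at XBP1. It lay 4.47 kb away at SPDEF and 7.10 kb away at FOXA1. The printed bases were taken from RefSeq on GRCh38.p14. This build differs from that of the lists, so no listed site was placed on the printed bases. They run 5′ to 3′ on the minus strand, at chr22:28800570-28800819 for the upstream of 2 XBP1 starts, chr14:37595250-37595499 for FOXA1 and chr6:34556330-34556579 for SPDEF. Capitals mark matches, on either strand, to the letters searched.
XBP1: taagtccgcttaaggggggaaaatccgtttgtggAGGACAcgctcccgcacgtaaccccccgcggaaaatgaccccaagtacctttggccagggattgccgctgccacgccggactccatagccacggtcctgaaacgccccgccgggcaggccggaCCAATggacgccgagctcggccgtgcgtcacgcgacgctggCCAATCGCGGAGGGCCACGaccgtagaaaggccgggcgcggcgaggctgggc
FOXA1: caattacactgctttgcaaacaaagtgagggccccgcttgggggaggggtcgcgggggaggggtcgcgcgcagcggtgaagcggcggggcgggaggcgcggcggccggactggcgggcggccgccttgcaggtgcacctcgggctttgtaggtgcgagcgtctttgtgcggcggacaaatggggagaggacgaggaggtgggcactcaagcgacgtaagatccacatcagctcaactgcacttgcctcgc
SPDEF: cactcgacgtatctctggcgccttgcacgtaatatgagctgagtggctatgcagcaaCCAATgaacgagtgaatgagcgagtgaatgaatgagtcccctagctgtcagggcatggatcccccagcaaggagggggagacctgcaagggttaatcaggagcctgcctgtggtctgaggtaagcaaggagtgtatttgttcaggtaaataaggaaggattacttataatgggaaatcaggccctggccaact
In the XBP1 promoter the longest capital run matches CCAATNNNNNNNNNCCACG, the ER stress element through which unfolded protein signals are known to act. It began 52 bases before the start, and 0.074% of all 35116 RefSeq promoters of this length hold a match. The first 5 letters of that run are also a CCAAT box, a second CCAAT box stands 93 bases before the start, and 32% of promoters hold one. The remaining XBP1 match is to AGNACA, a loose version of the steroid receptor hexamer that 35.5% of promoters hold. The steroid receptor palindrome, made of the core of that hexamer and its reverse complement and held by 0.327% of promoters, had no match in these 3, nor had the stricter hexamer TGTTCT (12.4%), whose matches are also matches to AGNACA. The forkhead letters TGTTTAC (2.98%) and the GATA letters AGATAA (9.17%) had none either. SPDEF held 1 CCAAT box, 193 bases before its start, and FOXA1 held no match to any of the 7 patterns. GATA3 has 6 annotated starts over 15.1 kb, and their promoters are not printed. In those promoters AGNACA and the CCAAT box had matches, and the other patterns had none. TFAP2C is named only. A match is a description of the letters, and a missing match says nothing about binding.

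No PR site was listed at any of the 5 loci in unstimulated cells, and 38 were listed after 5 min of R5020. The windows held another 38 sites in the 30 min list, 35 in the 60 min list and 26 in the 360 min list. The 0 min list holds only 844 sites genome-wide, and at its mean density 0.158 sites would fall in 567 kb, so the 0 at these loci cannot be told apart from the shortness of that list. The hormone lists hold 22973, 25872, 24436 and 23841 sites at 5, 30, 60 and 360 min, and at their mean density 4.29, 4.83, 4.57 and 4.45 sites would fall in the windows. PR sites were therefore 8.85, 7.86, 7.67 and 5.84 times as dense at these loci as over the genome at 5, 30, 60 and 360 min. The genome mean was taken over all 3035 Mb up to the last listed base of each chromosome. Because the loci were chosen with earlier results of these data known, these ratios are a description and not an independent finding.

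The plot of sites per locus and time gives the counts of each window. With 50 kb flanks XBP1 held the most sites at each time with hormone, with 16, 15, 12 and 9 in order of time. FOXA1 held 9, 9, 7 and 4 sites. SPDEF held 6, 8, 6 and 6 sites, and GATA3 held 6, 4, 7 and 5. TFAP2C held the fewest, with 1, 2, 3 and 2 sites. These counts depend on the window: with 20 kb flanks XBP1 held 11, 8, 6 and 4 sites, GATA3 6, 4, 7 and 5, FOXA1 2, 4, 4 and 2, SPDEF 2, 4, 2 and 3, and TFAP2C 0, 1, 1 and 1. GATA3 then held the most at 60 and 360 min, and the counts at FOXA1 no longer fell with time. The counts are small, no replicate shows how far one varies between cultures, and a difference in time course between loci was not tested.

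**Figure D1:**
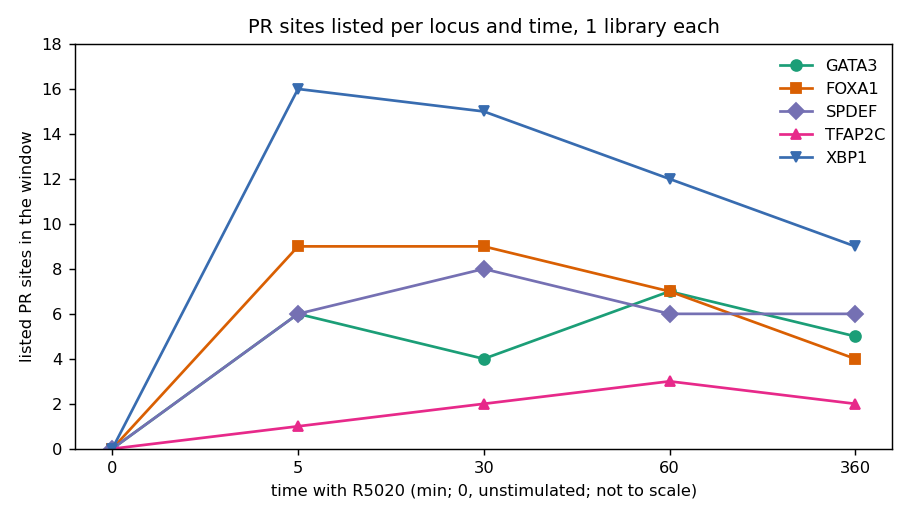
Number of PR sites listed in each window (y axis) by time with 10 nM R5020 in min (x axis, evenly spaced), 1 line per locus and 1 library per time. All 5 lines start at 0 sites; XBP1 reaches 16 sites at 5 min and stands at 9 at 360 min, while SPDEF stands at 6 at both.

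Members listed at all 4 times with hormone numbered 19 of 51 (37.3%, interval 24.1 to 51.9), and over all merged sites the share was 23.0%. Of the 5 loci, GATA3 had 4 of 7 such sites, FOXA1 3 of 12, SPDEF 4 of 10, TFAP2C 1 of 3 and XBP1 7 of 19. At the other end, 16 members were listed at 1 time alone, while 43.2% of all merged sites were. Of these, 8 were in the 5 min list (4 at XBP1, 2 at FOXA1 and 2 at SPDEF), 5 in the 30 min list, 2 in the 60 min list and 1 in the 360 min list. When only the wider 50% of each list was used, 7 members were at all 4 times. The matching share over all merged sites is not given here, so this count cannot be set beside the 23.0%.

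Most 60 min members had already been listed at 5 min. This held for 29 of 35 (82.9%, interval 66.4 to 93.4), against 53.7% of the whole 60 min list. By locus it held for 6 of 7 sites at GATA3, 5 of 7 at FOXA1, 5 of 6 at SPDEF, 2 of 3 at TFAP2C and 11 of 12 at XBP1. The 30 min list held 30 of the 35 (85.7%, interval 69.7 to 95.2), near the 77.6% of the whole list. The 360 min list held 25 of the 35 (71.4%, interval 53.7 to 85.4), which is about the 70.6% of the whole list. Of the 38 sites listed at 5 min, 20 were also listed at 360 min (52.6%), and over the whole 5 min list 50.6% were. The share at these loci was thus close to that of PR sites in general, with 3 of 9 sites at FOXA1, 7 of 16 at XBP1 and 5 of 6 at GATA3.

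**Figure D2:**
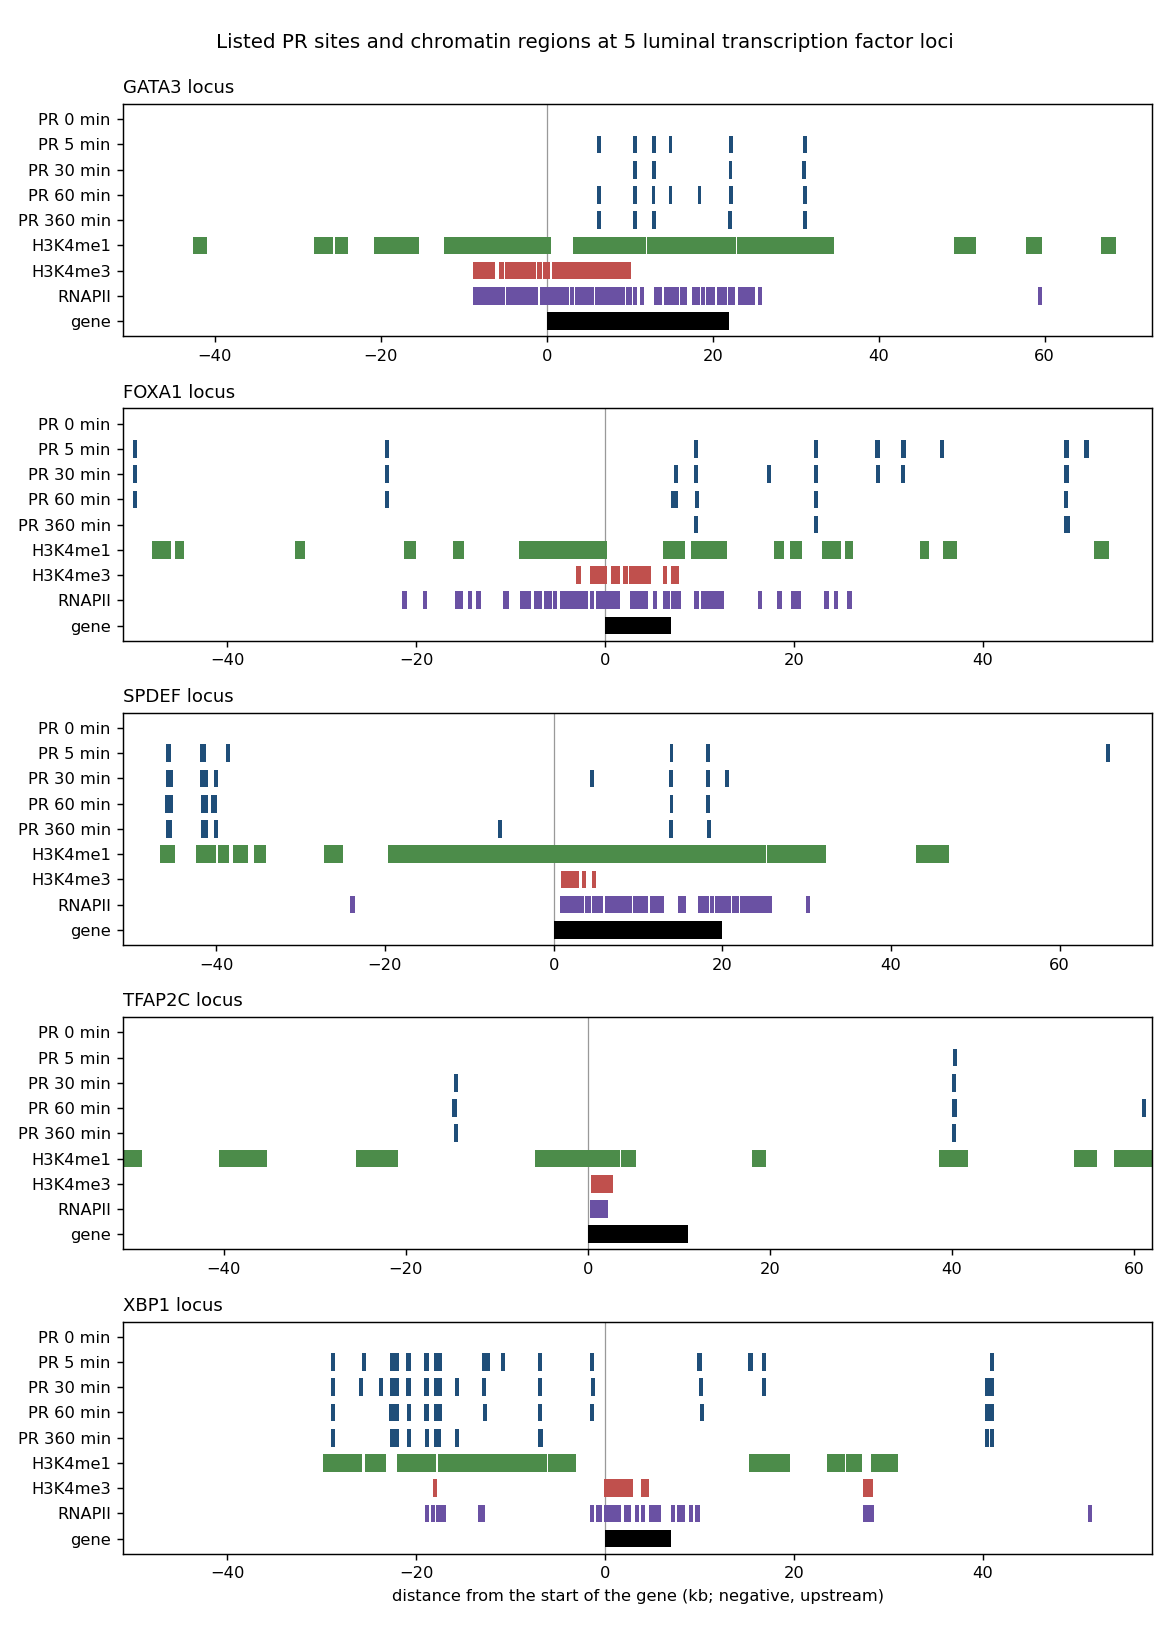
Maps of the 5 windows, with distance from the start of the gene in kb along the direction of transcription (x axis) and a row for each PR list, each chromatin list of unstimulated cells and the gene. Bars are listed regions, with those under 0.45 kb drawn at 0.45 kb, and the row of PR at 0 min is empty in all 5 panels. PR sites fall mainly inside the gene at GATA3, inside the gene and on both sides of it at SPDEF, and mainly upstream at XBP1.

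GATA3 was the one locus of the 5 where every merged PR site lay in H3K4me1 (7 of 7) and most lay in RNAPII (6 of 7). All 7 lay downstream of the start, 5 inside the 22 kb gene and 2 beyond its end, spread over 24.7 kb with a median spacing of 3.57 kb. The gene is flanked by TAF3 on the lower-coordinate side and by CELF2, the next coding gene, on the other. GATA3 has 6 annotated starts over 15.1 kb that were not placed on hg19, so distances here are from the lower gene limit. The site nearest that limit, chr10:8102063-8102496, lay 6.28 kb into the gene, and another annotated start may lie nearer or inside it. This site was missing from the 30 min list alone of the 4 hormone lists. It was also the widest 60 min site of the locus, at 408 bp, and it lay in all 3 chromatin lists. This site fell inside the widest H3K4me3 region of the whole list, 7765 bp at chr10:8096657-8104422.

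The 4 GATA3 sites listed at every time with hormone ranged from narrow to wide within their lists. At chr10:8106382-8106859 the site was 474, 242, 357 and 262 bp wide at 5, 30, 60 and 360 min. Its neighbour at chr10:8108654-8109181 was 453, 387, 399 and 348 bp wide. The site at the gene's end, chr10:8117894-8118196, was 217, 235, 166 and 302 bp wide, and its 166 bp at 60 min are among the narrowest of that list (percentile 0.579). The last, chr10:8126806-8127224, 31.0 kb from the start and outside RNAPII, was 275, 415, 253 and 327 bp wide. Width did not run one way with time in these 4 sites. Width is where the authors' caller drew the ends, and is not a binding strength.

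MNase reads were fewer with R5020 at all 7 GATA3 sites of the 60 min list, where 20.9% of all sites had more. Relative to the median ratio of all sites, 0.773, 5 of the 7 were lower and 2 higher. They were 53 to 162 with R5020 (median 86) and 82 to 195 in unstimulated cells (median 136), so the ranges overlap although each site moved the same way. The lowest ratio of R5020 to unstimulated reads, 0.59, was at the site in the broad H3K4me3 region, which had 98 reads with R5020 and 166 in unstimulated cells. The highest, 0.894, was at the site farthest from the gene, with 76 reads with R5020 and 85 in unstimulated cells. No GATA3 site reached a ratio of 0.5, although 6 of the 7 lay in RNAPII, where the median of all 60 min sites was 0.493.

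At FOXA1 most PR sites lay outside every chromatin region mapped. Of 12 merged sites, 9 overlapped none of the 3 lists (75%, interval 42.8 to 94.5), while 56.7% of all merged sites did. Of these 9, 4 lay within 1 kb of an H3K4me1 region and the farthest lay 2653 bp from one, so they stood between the regions rather than far from them. No site lay inside the 7 kb gene, 2 lay upstream, on the side of TTC6, and 10 lay beyond the gene's end, on the side of MIPOL1. Whether any lay inside TTC6 or MIPOL1 was not examined. The FOXA1 gene is short and read on the minus strand, so sites at lower coordinates lie beyond its end.

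The 3 FOXA1 sites listed at all 4 times lay 9.59, 22.3 and 48.9 kb from the start, all beyond the gene. The one nearest the gene, chr14:38055231-38055587, lay in H3K4me1 and RNAPII and was 343, 308, 251 and 318 bp wide at 5, 30, 60 and 360 min. The middle one, chr14:38042568-38042873, was 294, 276, 237 and 248 bp wide. The outermost, chr14:38015842-38016367, held the widest 60 min site of the locus, with widths of 477, 507 and 455 bp at 5, 30 and 60 min and 2 sites of 234 and 178 bp at 360 min. Both of the outer sites lay in none of the 3 lists. The other 6 FOXA1 sites listed at 5 min were absent from the 360 min list, among them both upstream sites, 23.1 and 49.8 kb before the start.

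A pair of later sites stood at the end of the FOXA1 gene, 7.42 and 7.10 kb from the start, and both lay in H3K4me1, H3K4me3 and RNAPII. The first, chr14:38057466-38057699, was listed at 30 and 60 min, and the second, chr14:38057790-38058001, at 60 min alone. They had the lowest MNase ratios of the locus. The first had 42 reads with R5020 and 136 in unstimulated cells, a ratio of 0.309 that only 2.13% of all 60 min sites lie at or under. The second had 33 reads with R5020 and 84 in unstimulated cells, a ratio of 0.393. At the other end of the scale, the upstream site at chr14:38088028-38088324, which lay in no chromatin region, had 86 reads with R5020 and 77 in unstimulated cells, a ratio of 1.12. Across the 7 FOXA1 sites reads ran from 33 to 120 with R5020 and from 71 to 150 in unstimulated cells, and the ranges overlap.

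SPDEF combined a gene body under 1 wide H3K4me1 region with a group of PR sites far upstream, 1 of which was 686 bp or wider at every time with hormone. Its widest H3K4me1 region, 26371 bp at chr6:34499768-34526139, covered the whole gene, ranked 302 by width among 73263 regions and held 4 merged PR sites. The upstream group held 4 merged sites between 38.7 and 45.7 kb before the start, on the side of ILRUN. All lay in H3K4me1 and outside H3K4me3 and RNAPII. The limits of ILRUN were not placed on hg19, so these sites may lie inside that gene. The larger of the 2 that were listed at all 4 times, chr6:34565985-34566893, was 686, 894, 835 and 867 bp wide at 5, 30, 60 and 360 min. At 60 min it was as wide as the widest XBP1 site, and 99.7% of sites of that list are no wider. The other, chr6:34570279-34571021, was 634, 672, 734 and 690 bp wide, where the 30 and 60 min values are sums over 2 neighbouring sites, of 277 and 395 bp at 30 min and of 288 and 446 bp at 60 min.

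Within SPDEF itself, 2 further sites were listed at all 4 times. One, chr6:34506477-34506922, 18.3 kb into the gene and in RNAPII, was 279, 313, 445 and 154 bp wide. The other, chr6:34510984-34511328, 13.8 kb into the gene, was 191, 344, 227 and 206 bp wide. The site nearest the start, chr6:34520417-34520636, lay 4.47 kb into the gene in H3K4me1 and was listed at 30 min alone. Only its lower-coordinate end overlapped H3K4me3 (chr6:34520180-34520477), and only its higher-coordinate end overlapped RNAPII (chr6:34520568-34521277). Of the 6 SPDEF sites at 60 min, all 6 were also listed at 30 and at 360 min.

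MNase reads at SPDEF were 63 to 133 with R5020 (median 101.5) and 75 to 230 in unstimulated cells (median 174.5), lower with R5020 at all 6 sites. Relative to the median ratio of all sites 4 were lower and 2 higher. The median ratio of 0.572 was the lowest of the 5 loci. The lowest ratio, 0.437, was at the RNAPII-covered site 18.3 kb into the gene, with 97 reads with R5020 and 222 in unstimulated cells. The widest upstream site had 130 reads with R5020 and 230 in unstimulated cells, a ratio of 0.565. The highest ratio, 0.858, was at chr6:34564955-34565586 in the same upstream group, with 133 reads with R5020 and 155 in unstimulated cells. Sites a few kb apart in that group thus had ratios from 0.546 to 0.858.

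TFAP2C was the sparsest locus, with 3 merged PR sites, none in the 11 kb gene and none in H3K4me3 or RNAPII. The gene, between FAM209B and BMP7, carried 1 H3K4me3 region of 2411 bp and 1 RNAPII region of 1995 bp just past its start, the only ones of either list in the window. The site nearest the start, chr20:55189122-55189604, lay 14.6 kb upstream in none of the 3 lists, was listed at 30, 60 and 360 min, and was the widest 60 min site of the locus at 472 bp. The site listed at all 4 times, chr20:55244013-55244305, lay 40.2 kb downstream of the start in H3K4me1 and was 213, 252, 270 and 244 bp wide. The third, chr20:55264892-55265248, crosses the edge of the window; a 5 min site is merged into it but lies past the edge, so the 5 min count of the locus leaves it out.

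The TFAP2C sites had both a gain and losses of MNase reads. The site listed at all 4 times had 48 reads with R5020 and 41 in unstimulated cells, and its ratio of 1.17 was the highest of all 35. The upstream site had 127 reads with R5020 and 147 in unstimulated cells, a ratio of 0.864. The site at the window's edge had 57 reads with R5020 and 99 in unstimulated cells, a ratio of 0.576. With 3 sites the median of 0.864 is 1 site's value.

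XBP1 had the most merged PR sites within 50 kb, and they were gathered upstream of the gene. Of 19 merged sites, 14 lay upstream, on the side of ZNRF3, and 5 beyond the gene's end, on the side of CCDC117. None lay in the 7 kb gene. The limits of CCDC117 and ZNRF3 were not placed on hg19, so sites and regions on their sides may lie inside or past them. On the CCDC117 side the window held an H3K4me3 region 27.4 to 28.4 kb from the start, within an RNAPII region, and the gene it belongs to was not examined. The median spacing of neighbouring sites was 1.84 kb, against 3.57 kb at GATA3, 4.97 kb at FOXA1 and 4.46 kb at SPDEF. The site nearest the start, chr22:29198117-29198574, lay 1.35 kb upstream, in RNAPII but in neither methylation list. It was listed at 5, 30 and 60 min and not at 360 min, and its 60 min site had 57 MNase reads with R5020 and 75 in unstimulated cells, a ratio of 0.76.

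A run of 4 XBP1 sites listed at all 4 times began 17.7 kb upstream, and it held the widest PR sites of the locus. The nearest of them, chr22:29214285-29215144, was 823, 804, 835 and 831 bp wide at 5, 30, 60 and 360 min. It was the one XBP1 site that overlapped all 3 chromatin lists. Its overlap with H3K4me3 was at its far end alone, with a region of 217 bp. By midpoint, 0 of the 60 min XBP1 sites lay in H3K4me3. Next came chr22:29215607-29216214, in H3K4me1 and RNAPII, with widths of 607, 508, 517 and 411 bp. The third, chr22:29217591-29218027, was 418, 436, 307 and 222 bp wide, in H3K4me1 alone. The farthest of the run, chr22:29218826-29219819, spanned 968, 906 and 922 bp at 5, 30 and 360 min, and at 60 min the list divides it into 2 sites of 384 and 549 bp. At 5 min 99.9% of sites of that list are no wider than this one.

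The remaining 3 XBP1 sites listed at all 4 times lay apart from that run. At chr22:29203674-29204110, 6.89 kb upstream, the widths were 305, 234, 417 and 384 bp. At chr22:29225719-29226063, 28.9 kb upstream, they were 329, 287, 344 and 270 bp. At chr22:29155838-29156266, 40.9 kb beyond the start on the CCDC117 side and in no chromatin region, they were 251, 418, 313 and 410 bp. Sites listed at 5 or 30 min alone stood among the upstream ones.

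MNase reads at XBP1 were 25 to 69 with R5020 (median 52) and 38 to 162 in unstimulated cells (median 65.5), fewer with R5020 at all 12 sites. Relative to the median ratio of all sites 8 were lower and 4 higher. Per 100 bp the unstimulated median was 17.8 reads, against 30.3 over all 60 min sites and 42.9 at GATA3. With R5020 it was 12.02 reads, against 23.09 over all 60 min sites and 30.04 at GATA3. Reads per 100 bp at XBP1 sites were thus few in both conditions, and the cause was not tested. The 2 lowest ratios were in the upstream run. They were 0.415 at chr22:29215664-29216181, with 51 reads with R5020 and 123 in unstimulated cells, and 0.426 at chr22:29214303-29215138, with 69 reads with R5020 and 162 in unstimulated cells. Of the 2 sites in the farthest member of the run, the nearer one had 30 reads with R5020 and 63 in unstimulated cells (0.476), and the farther one had 53 reads with R5020 and 67 in unstimulated cells (0.791). The highest ratio of the locus was 0.955 at chr22:29186617-29186936, beyond the gene's end, with 42 reads with R5020 and 44 in unstimulated cells.

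H3K4me3 and RNAPII regions of unstimulated cells lay within 1 kb of the starts of all 5 genes, and their extents differed. Joined over gaps of up to 2 kb, H3K4me3 regions around the start ran over 18.99 kb at GATA3 in 10 regions, 10.9 kb at FOXA1 in 10 regions, 4.8 kb at XBP1 in 2 regions, 3.94 kb at SPDEF in 3 regions and 2.41 kb at TFAP2C in 1 region. The widest of these at XBP1, 3076 bp at chr22:29194062-29197138, ranked 28 among 22593 regions. The widest H3K4me3 region was 1422 bp at FOXA1 and 2106 bp at SPDEF, both inside the gene. The widest RNAPII region was 3883 bp at GATA3 and 3008 bp at FOXA1, both upstream of the gene start used here. It was 2972 bp inside SPDEF and 1390 bp over the start of XBP1. The 6 annotated GATA3 starts, over 15.1 kb, were not placed on hg19. The long H3K4me3 run and the widest RNAPII region at GATA3 may therefore cover further starts. RNAPII regions covered 77.0% of the GATA3 gene, 74.0% of SPDEF, 63.7% of FOXA1, 63.1% of XBP1 and 18.1% of TFAP2C. H3K4me1 covered 100% of the SPDEF gene and 87.5% of GATA3, but 15.9% of FOXA1 and 0% of XBP1. Over the 567 kb, H3K4me1 covered 40.1%, RNAPII 15.1% and H3K4me3 6.25%, against 7.64%, 0.641% and 0.549% of the genome. The widest H3K4me1 region at the other loci was 12920 bp at GATA3, 9365 bp at FOXA1, 9329 bp at TFAP2C, each of which held the start and no PR site, and 7573 bp at XBP1, upstream of the gene and with 4 PR sites.

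**Figure D3:**
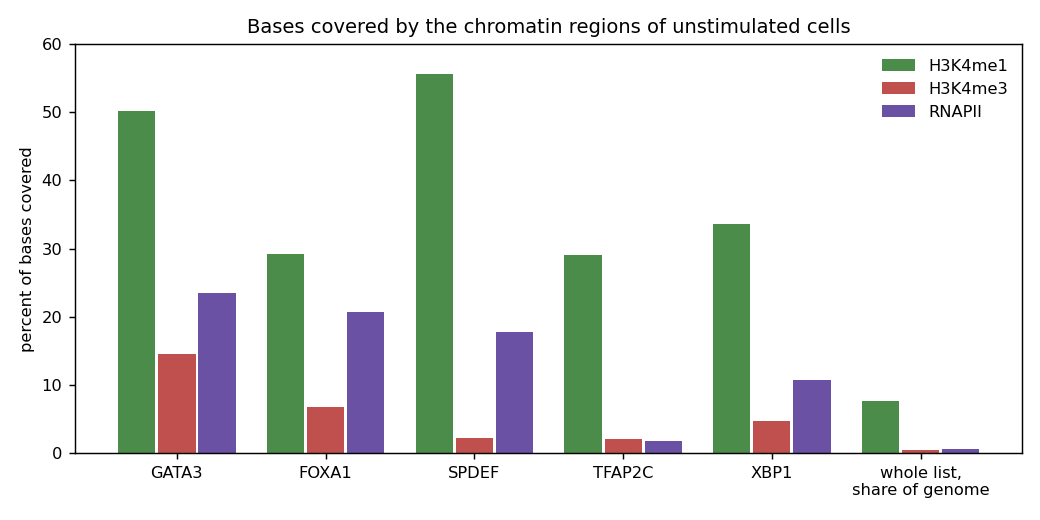
Percent of bases covered by H3K4me1, H3K4me3 and RNAPII regions of unstimulated cells (y axis) in each of the 5 windows and over the genome (x axis), 1 library per list. H3K4me1 covers the most at every locus, 40.1% over the 5 windows against 7.64% of the genome, and TFAP2C has little RNAPII.

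PR sites at the 5 loci lay in H3K4me1 and RNAPII regions more often than PR sites of the whole list, most so in RNAPII. Of the 35 sites at 60 min, 25 lay in H3K4me1 (71.4%, interval 53.7 to 85.4; 48.2% of the whole list) and 14 in RNAPII (40%, interval 23.9 to 57.9; 8.92% of the whole list). By locus, H3K4me1 held 7 of 7 sites at GATA3, 3 of 7 at FOXA1 and 6 of 6 at SPDEF. It held 2 of 3 at TFAP2C and 7 of 12 at XBP1. In this order RNAPII held 6, 3, 1, 0 and 4 sites. FOXA1 in H3K4me1 and TFAP2C in RNAPII thus lay under the share of the whole list. H3K4me3 held 4 of the 35, against 5.12% of the list, and 9 lay in none of the 3, against 50.4% of the list. Over merged sites the counts were 36 of 51 in H3K4me1 (all merged sites, 42.1%), 17 in RNAPII (6.99%), 5 in H3K4me3 (4.10%) and 13 in none (56.7%). The H3K4me3 counts rest on few sites: 7 of the 35 lay within 1 kb of such a region, and 1 lay in the wider 50% of them. How far the larger area covered at these loci accounts for the overlap was not tested. H3K4me1 held 16 of the 19 members listed at all 4 times (84.2%) and 20 of the other 32 (62.5%). Over all merged sites these shares were 60.5% and 36.6%, so the same order held there. Among the other 32, the members listed at 1 time alone had 12 of 16 in H3K4me1 (75%), above the 32 as a whole. Over all merged sites those listed at 1 time alone had 33.4%, below the 36.6%, so the finer order was not shared.

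Across the 5 loci MNase reads were fewer with R5020 at 33 of the 35 sites, with a median of 63 with R5020 and 99 in unstimulated cells. The median ratio was 0.658 (quartiles 0.574 and 0.835). Over all 24436 sites of the 60 min list the medians were 75 with R5020 and 97 in unstimulated cells, with a median ratio of 0.773, a shift of -0.37 on the log2 scale that the authors' normalization could have set. Relative to that shift 22 of the 35 sites were lower and 13 higher. The median of the members became 0.851 when divided by it, and that of TFAP2C became 1.12, against 0.864 before division. Ratios at or under 0.5 were found at 6 members, against 13.4% of all sites, and ratios above 1 at 2 members, against 20.9% of all sites. The 6 were 2 sites at FOXA1, 1 at SPDEF and 3 at XBP1, and the first share is close to its background. Fewer MNase reads do not tell loss of a nucleosome from a change in its position or in how readily it is cut.

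**Figure D4:**
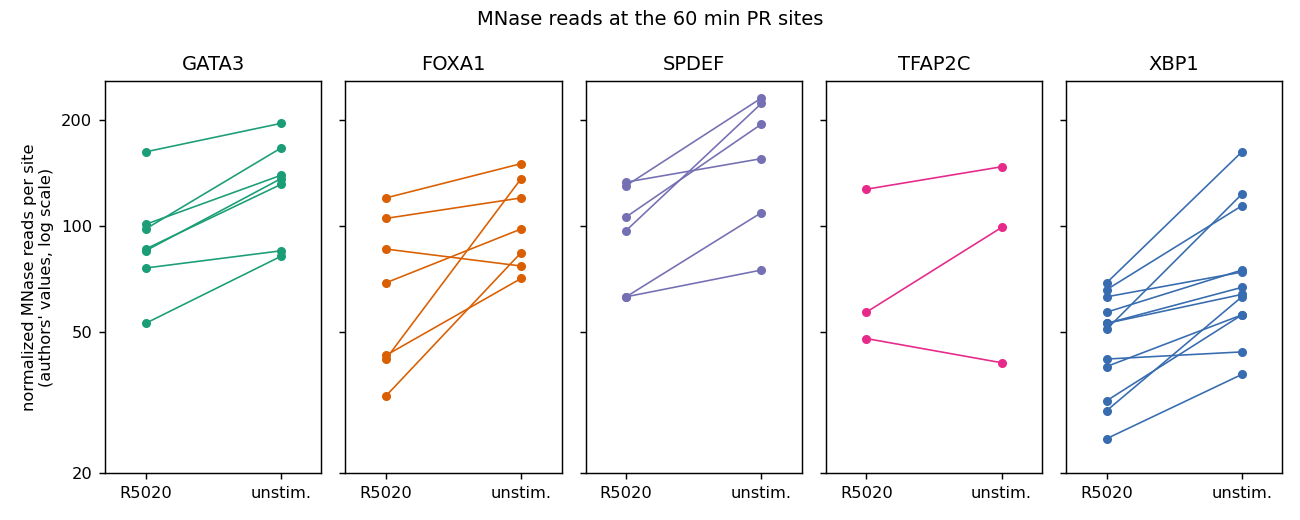
Authors' normalized MNase reads (y axis, log scale) at each of the 35 PR sites of the 60 min list with R5020 (left) and in unstimulated cells (right), 1 line per site, 1 panel per locus and 1 library per condition. Lines rise towards the unstimulated side at 33 sites, and the exceptions are 1 site at FOXA1 and 1 at TFAP2C.

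Ratios were lower inside RNAPII and inside H3K4me1 regions than outside them, as over the whole list. In RNAPII regions 14 members had a median ratio of 0.636, and the 21 outside them had 0.8; over all 60 min sites these medians were 0.493 and 0.796. In H3K4me1 regions 25 members had a median of 0.59, and the 10 outside had 0.814; over all sites these were 0.667 and 0.871. The 12 members in H3K4me1 alone had a median of 0.578 and the 13 in both H3K4me1 and RNAPII had 0.625. Over all sites these medians stood the other way round, at 0.703 and 0.484. Ratios of summed reads kept the order of all sites, with 0.669 and 0.567 for these members and 0.707 and 0.506 over all sites. Ratios at or under 0.5 were found at 1 of the 12 and 5 of the 13, so the order of the medians rests on few sites. The 4 members in all 3 lists had a median of 0.409 (all such sites, 0.449), and the 9 in none of them had 0.828 (all such sites, 0.877). Among the RNAPII members, the 6 at GATA3 had ratios from 0.59 to 0.831 and the 8 at FOXA1, SPDEF and XBP1 had ratios from 0.309 to 0.76. Unstimulated reads were also higher in RNAPII regions, with a median of 133.5 inside and 77 outside, and their part in the ratio was not tested.

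**Figure D5:**
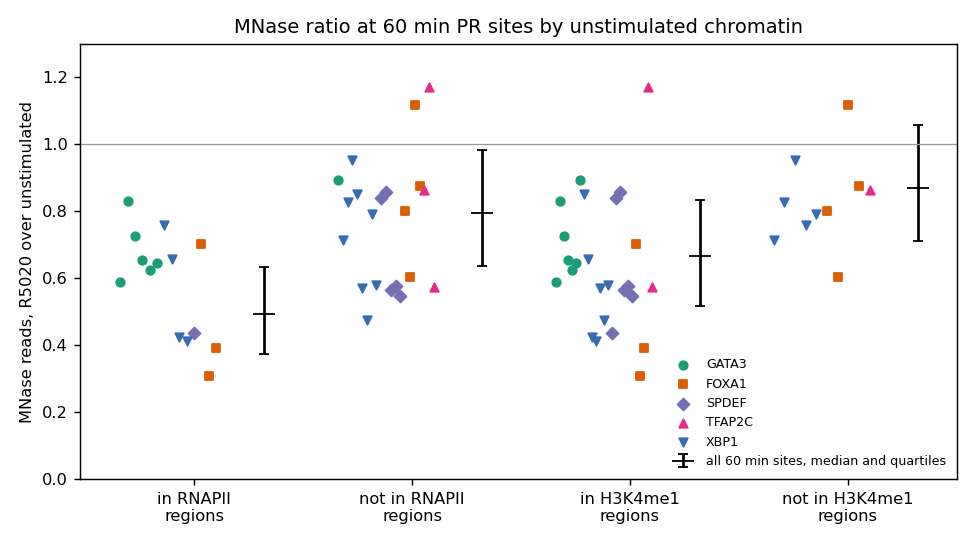
Ratio of MNase reads with R5020 to those in unstimulated cells (y axis) at the 35 PR sites, by overlap with RNAPII or H3K4me1 regions of unstimulated cells (x axis), with a symbol per locus. Black marks are medians and quartiles of all 60 min sites of the class; members in RNAPII have a median of 0.636 and those outside 0.8, and the gray line marks 1.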

How the data were processed

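For each sample the authors deposited 1 list of regions, with chromosome, start and end. The build is hg19, per the submitters' processing notes. The lists hold no height or depth, and they were made with an aligner, a caller and thresholds not given in the sources used here. MNase values are the authors' normalized whole-number reads per 60 min PR site and were handled as a score, since per the file headers they are normalized by a method not given. The authors' deposited ratio is unstimulated over R5020; the ratio used here is R5020 over unstimulated, computed from the reads. The MNase libraries are not among the 8 samples.

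The 5 loci, the lists and the comparisons were chosen with earlier results of these data known. Regions were members if they overlapped a window by at least 1 bp, and PR sites of the 5 lists were merged where they overlapped. A PR site was counted in a chromatin region if they overlapped by at least 1 bp. Gene limits are the windows without their 50 kb flanks, in whole kb. The limits of neighbouring genes and further annotated starts were not placed on hg19. The text names with values the sites listed at all 4 hormone times and, per window, the site nearest the start, the widest 60 min site, those with the lowest and highest ratio and the widest region of each chromatin list; sites outside this rule that are named were chosen after their values were seen. No group has a second sample, so there was no test: shares carry exact 95% intervals and stand beside the same share over the whole list. A ratio at or under 0.5 or above 1 was counted. The planned motif search in PR sites needs an hg19 genome and was not run. Promoters are RefSeq's on GRCh38.p14 and matched 4 of the 5 genes, and neighbouring genes were named from the order in RefSeq's annotation of that build; the ER stress element and the CCAAT box were added to the search after the sequences had been seen. Overlap code was tested on copies of the 60 min list, where all 31867 sites left within 50 bp of their place were recovered. On chromosomes 14 and 22, all 1243 sites of that list also matched a direct search against the 5 min list. Alternatives tried were the flank, the merging rule, the wider 50% of each list, distance to chromatin regions, a pseudocount, a minimum of reads and division by the all-site median. Tables were handled with pandas 2.3.3 and NumPy 2.4.6 under Python 3.11.15, intervals came from SciPy 1.17.1, and figures from Matplotlib 3.10.9.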

Additional observations from a re-analysis of the deposited data

How the results depend on the processing

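No paired analysis was possible because each group holds 1 sample, and for the same reason no replicate could be left out. Of the values set beside their alternatives that answer a comparison, 19 stayed within their limits and 12 moved; of the other values 106 stayed, 48 moved and 1 reversed. With 20 kb flanks the windows held 21, 21, 20 and 15 sites at 5, 30, 60 and 360 min, and with 100 kb flanks 50, 52, 46 and 34; the 0 min count was 0 with each flank. In the wider 50% of each list they held 21, 22 and 15 in the 30, 60 and 360 min lists, and 7 merged sites were listed at all 4 times, against 19 in the full lists and 18 under either other merging rule. Of the 60 min sites, 7 lay within 1 kb of an H3K4me3 region and 1 in the wider 50% of these regions, against 4 as listed; 8 lay in the wider 50% of RNAPII regions, against 14. Divided by the median of all sites, the median MNase ratio was 0.851, against 0.658, and that of TFAP2C became 1.118, against 0.864, which follows from the division itself. Depth is unknown, so how many weaker sites the lists miss cannot be given.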
